A study of Rattus norvegicus with 12 samples.

Results

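Cardiac macrophage genes were followed in left ventricular RNA of rats with and without an infarct. The 10 genes were Cd68, Cd163, Mrc1, Adgre1, Csf1r, C1qa, C1qb, Trem2, Timd4 and Lgals3, matched to the table by symbol. A symbol matched a row for 9 of them, out of 34700 genes in the table, and Timd4 matched none and was not analysed here. All 9 passed the filter on low counts in each comparison. The 12 male Sprague-Dawley rats were 8 weeks old at surgery and fell into 4 groups of 3. In Sham rats a thread was passed around the anterior descending coronary artery and left untied. In the other groups the artery was ligated, and treatment began 4 weeks later: HF rats stayed sedentary, HFE rats ran on a treadmill for 60 minutes a day, 5 days a week, for 8 weeks, and BAIBA rats received β-aminoisobutyric acid, a small molecule released by exercising muscle, at 75 mg per kg per day by gavage for 8 weeks. The study describes an exercise experiment with HFE rats and a BAIBA experiment, and lists Sham and HF groups for each. Water by gavage is stated for the Sham and HF rats of the BAIBA experiment. Which experiment the sequenced Sham and HF rats came from is not stated. Between HFE and BAIBA rats, treatment and experiment cannot be told apart. Hearts were taken 12 weeks after surgery, and RNA came from the anterior left ventricular wall. The study's text places the tissue around the infarct for the BAIBA group in one passage and for the HF and BAIBA groups in another, and names no such area for HFE, so group and sampled area cannot be told apart where they may differ. Each library is called a rat here after its number in the labels, which do not say outright that the 3 of a group came from separate animals, so the p-values measure the spread between these samples.

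Macrophages live in the healthy heart between the muscle cells, and more arise from blood monocytes after an infarct, where they clear dead cells and take part in scar formation. Their survival depends on signalling through the receptor encoded by Csf1r. Resident cells are commonly recognised by the scavenger receptors Cd163 and Mrc1 and, in the mouse, by Timd4, while Trem2 and Lgals3 are associated with cells that take up lipid and debris. Macrophages are also the main source of complement C1q, whose chains C1qa, C1qb and C1qc start the classical complement pathway. In bulk tissue, fewer macrophages and less of these RNAs per macrophage cannot be told apart.

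To show the sequence upstream of the members, the promoter windows of Cd163, C1qb and Mrc1 are printed, since these are the members whose BAIBA and HFE rats did not overlap. Each window runs from 250 bases before to 50 bases after the gene's start in RefSeq, build GRCr8, 5′ to 3′ on the strand of the gene. Capitals mark GAGGAA, or its reverse complement TTCCTC, the core bound by PU.1, a transcription factor of myeloid cells. The Cd163 window is chr4:158770524-158770823 on the plus strand, the C1qb window is chr5:154407778-154408077 on the minus strand and the Mrc1 window is chr17:82157475-82157774 on the plus strand.
Cd163: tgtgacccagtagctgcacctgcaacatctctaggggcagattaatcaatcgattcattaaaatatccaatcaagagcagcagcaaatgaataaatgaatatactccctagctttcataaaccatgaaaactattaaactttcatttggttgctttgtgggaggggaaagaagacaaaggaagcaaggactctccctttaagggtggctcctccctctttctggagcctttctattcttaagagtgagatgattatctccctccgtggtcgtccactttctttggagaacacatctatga
C1qb: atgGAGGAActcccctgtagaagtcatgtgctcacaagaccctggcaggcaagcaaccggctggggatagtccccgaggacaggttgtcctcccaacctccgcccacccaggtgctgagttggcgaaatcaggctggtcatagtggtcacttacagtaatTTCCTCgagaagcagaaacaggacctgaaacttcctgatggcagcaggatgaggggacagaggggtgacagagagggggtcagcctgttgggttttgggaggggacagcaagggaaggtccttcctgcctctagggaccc
Mrc1: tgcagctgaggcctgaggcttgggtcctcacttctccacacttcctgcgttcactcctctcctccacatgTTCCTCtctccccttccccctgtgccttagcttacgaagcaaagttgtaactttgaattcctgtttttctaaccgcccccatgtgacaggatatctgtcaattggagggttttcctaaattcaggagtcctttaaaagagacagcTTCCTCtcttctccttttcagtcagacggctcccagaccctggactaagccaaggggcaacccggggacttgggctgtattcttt
The C1qb and Mrc1 windows each held 2 matches and the Cd163 window held 0. A window was given for 8 of the 9 members with a row, and 6 of these 8 held at least 1 match, against 27.6% of all 33469 windows of 300 bases. A match is a description of letters and was not tested as a binding site. In the RefSeq gene order C1qb, C1qc and C1qa are neighbours on chromosome 5.

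Total counts ran from 14812541 to 19732588 per library, and the members' own counts from 19 to 1036. Several libraries stood apart from the rest. BAIBA rat 1 had the highest FPKM of all 12 rats in 8 of the 9 members, together with 686 FPKM of the lysozyme gene Lyz2 against 27.6 to 102 in the other 11 rats. Its summed mesothelial markers (5 of 5 with a row) reached 80.7 CPM against 18.1 to 40.5, and its summed mast cell markers (5 of 5) 70.3 CPM against 18.3 to 34.1. HF rat 1 had 268 CPM of summed T cell markers (7 of 8 with a row) against 7.68 to 22.2 in the others. Sham rat 2 had 72.9 FPKM of Spp1 against 0.199 to 18.4 in the other rats, and 23.1 FPKM of Gpnmb against 2.44 to 19.5. Both genes are from the list of scar and lipid macrophage genes read below. Summed atrial markers (3 of 3) ran from 13.7 to 65.9 CPM in Sham and from 2.12 to 29.0 in HF. They ran from 1.14 to 47.2 CPM in HFE and from 1.81 to 3.57 in BAIBA. HF rat 3 and HFE rat 1 held the highest atrial sums of their groups, and each was the highest of its group in 7 members. BAIBA rat 1, at 3.57 CPM the highest atrial sum of its group, was highest there in 9. Sham rat 3 went the other way. It held the highest atrial sum of all 12 rats, at 65.9 CPM, but was highest of its group in 0 members and lowest in 4. The part of these other cells in the members' levels was not tested, and values without BAIBA rat 1 are given beside the results it moved.

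Csf1r encodes the receptor for the growth factors CSF1 and IL-34. Its FPKM, a level per length of gene and depth of library, was 9.12, 10.2 and 8.56 in the Sham rats, 6.73, 8.72 and 10.5 in the HF rats, 8.41, 4.96 and 5.01 in the HFE rats and 15.6, 7.29 and 8.79 in the BAIBA rats. All HFE rats lay below all Sham rats, and a single BAIBA rat lay far above the others. Adgre1 encodes F4/80, an adhesion receptor used to mark macrophages. Its FPKM was 2.59, 2.23 and 1.58 in Sham, 2.18, 1.82 and 1.74 in HF, 2.13, 1.31 and 1.17 in HFE and 3.42, 0.796 and 2.34 in BAIBA. Every pair of groups overlapped, and the BAIBA group held both the highest and the lowest rat. Cd68, a glycoprotein of the endosome and lysosome, was at 5.31, 7.14 and 3.52 FPKM in Sham, 4.18, 2.74 and 4.33 in HF, 3.97, 2.82 and 2.78 in HFE and 11.5, 2.99 and 4.15 in BAIBA. Its groups overlapped as well, with BAIBA rat 1 again the highest.

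Lgals3 encodes galectin-3, a carbohydrate-binding protein that macrophages secrete. It was measured at 10.7, 21.1 and 13.5 FPKM in Sham, 14.1, 13.1 and 16.8 in HF, 12.4, 7.61 and 12.8 in HFE and 36.4, 11.5 and 20.7 in BAIBA. The 3 HFE rats lay at or below 12.8 FPKM and all HF rats above them, but on the CPM scale these groups overlapped. Trem2 encodes a receptor for lipids and debris. Its levels were 3.12, 3.94 and 2.96 FPKM in Sham, 1.83, 2.47 and 2.32 in HF, 2.80, 1.09 and 1.94 in HFE and 8.40, 2.03 and 2.99 in BAIBA. All HF rats and all HFE rats were below all Sham rats, while the BAIBA rats spanned both sides.

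Cd163 encodes the scavenger receptor that takes up haemoglobin bound to haptoglobin. It stood at 5.12, 2.86 and 4.34 FPKM in Sham, 3.94, 5.07 and 9.28 in HF, 2.22, 1.85 and 3.09 in HFE and 6.76, 5.20 and 5.86 in BAIBA. The BAIBA rats were close to each other and above every Sham and HFE rat, the HFE rats were below every HF rat, and the highest of all 12 was HF rat 3. Mrc1 encodes the mannose receptor CD206. Its FPKM was 5.03, 3.96 and 4.996 in Sham, 3.67, 4.65 and 6.90 in HF, 3.32, 2.56 and 3.08 in HFE and 10.6, 4.11 and 6.47 in BAIBA. The HFE rats were below all 9 other rats.

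C1qa and C1qb encode the A and B chains of C1q. C1qa was at 25.2, 23.0 and 25.1 FPKM in Sham, 19.5, 15.0 and 30.6 in HF, 17.9, 9.96 and 13.4 in HFE and 53.5, 16.6 and 22.8 in BAIBA. The Sham rats were nearly level, and the HFE rats were all lower than any of them. C1qb was at 20.4, 15.9 and 19.5 FPKM in Sham, 14.7, 11.7 and 24.3 in HF, 12.5, 9.83 and 11.2 in HFE and 46.8, 18.4 and 18.7 in BAIBA. Here too the HFE rats lay under every Sham rat, and also under every BAIBA rat.

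**Figure D1:**
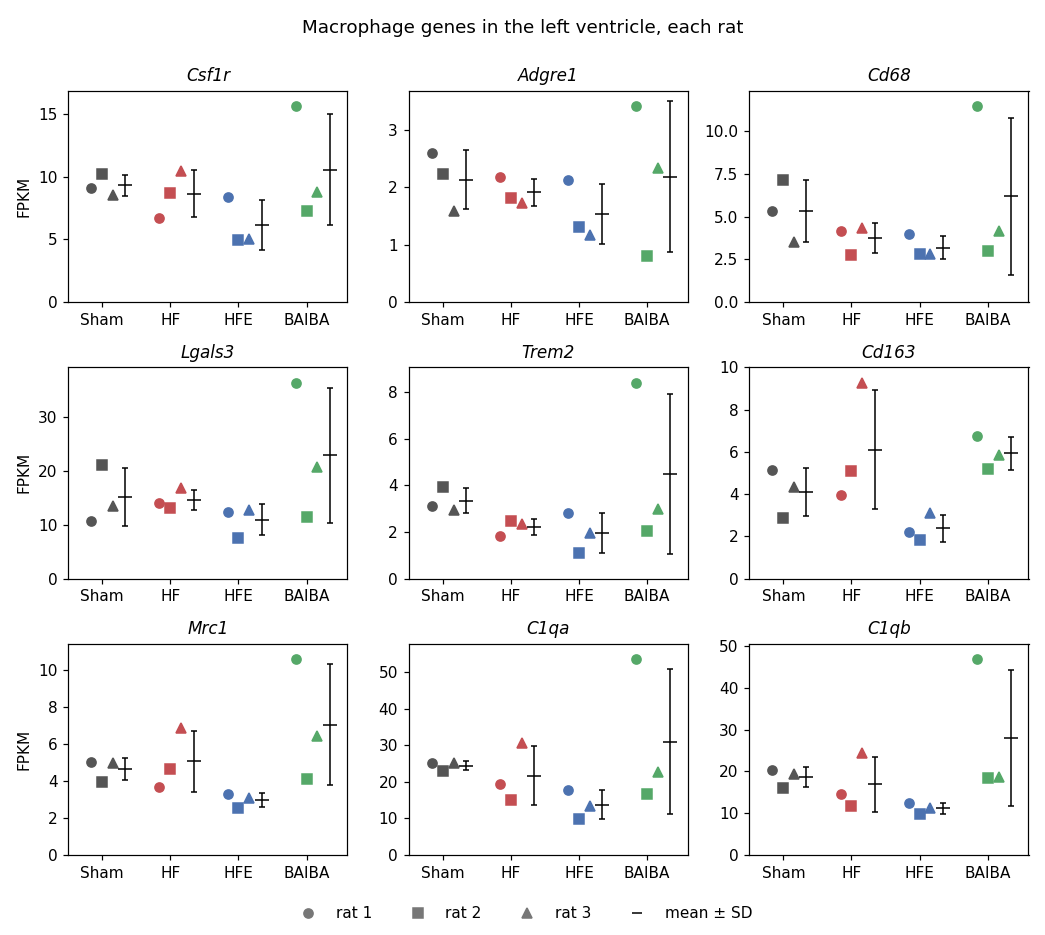
FPKM of the 9 macrophage genes (vertical axes, each starting at 0) in the Sham, HF, HFE and BAIBA groups, 1 marker per rat and mean ± SD (n = 3) beside each group. BAIBA rat 1 is the highest of 12 in 8 of the 9 panels, and for Cd163 the highest is HF rat 3 at 9.28 FPKM.

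By median FPKM over the 12 rats the order of levels was C1qa at 21.2, C1qb at 17.2, Lgals3 at 13.3, Csf1r at 8.64, Cd163 at 4.70, Mrc1 at 4.38, Cd68 at 4.06, Trem2 at 2.63 and Adgre1 at 1.97. Lgals3 was above Csf1r, Csf1r above Cd163 and Cd68 above Trem2 in all 12 rats. Cd163 exceeded Mrc1 in 6 of 12 rats and Mrc1 exceeded Cd68 in 6 of 12, so Cd163, Mrc1 and Cd68 had no stable order, and C1qb was above Lgals3 in 8 of 12. The HFE group had the lowest mean of the 4 groups for all 9 members, on the FPKM scale and on the log2 CPM scale alike. The BAIBA group had the highest mean FPKM for 8 members, and HF for Cd163, where HF averaged 6.09 ± 2.81 FPKM and BAIBA 5.94 ± 0.783 (SD, n = 3). BAIBA rat 1 carried much of this: its level over the mean of the other BAIBA rats was 3.35-fold for Trem2, 3.21-fold for Cd68, 2.72-fold for C1qa and 2.53-fold for C1qb, but 1.22-fold for Cd163. On the log2 CPM scale it exceeded the other BAIBA rats by more than 1 for 5 of 9 members, against 4.71% of 15617 genes.

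Differences between groups were tested with edgeR's quasi-likelihood test over all genes that passed the filter, and a gene was called where its Benjamini-Hochberg adjusted p was below 0.05 and its absolute log2 fold change above 1. The 6 pairs of groups share rats with each other, so they are given side by side and are not independent. With 3 rats against 3 the smallest p an exact permutation test can give is 0.1. Groups are said not to overlap where this held on the log2 CPM scale, and each percentage in parentheses is the share of all tested genes that met the same condition.

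The first question was how the members differed between HF and Sham rats 12 weeks after ligation. None of the 9 was called (0% of 14957 genes called), none had an unadjusted p below 0.05 (6% of all genes had), and their adjusted p ran from 0.805 to 0.995 in edgeR, with 0 calls by DESeq2 and limma as well. The log2 fold changes were negative for 7 members and positive for 2 (51.9% of all genes positive), with a median of -0.11 beside 0.0088 over all genes. The largest were Cd163 at 0.60 (SE 0.39) and Trem2 at -0.57 (SE 0.25, unadjusted p = 0.0530). Trem2 was also the 1 member whose groups did not overlap, all HF rats being lower (6.55% of all genes were non-overlapping in that direction). The receptor Csf1r differed by -0.078 (SE 0.19). HF rat 3 lay above the other HF rats for 7 members, and the values moved with the rat left out. Without HF rat 3 the median was -0.27, 8 members were lower and 2 had an unadjusted p below 0.05 in edgeR, C1qa at -0.52 (SE 0.14) and C1qb at -0.51 (SE 0.17). Without HF rat 2, 5 members were higher, with a median of 0.051, and without Sham rat 3 the unadjusted count was 1. Cd68 was at -0.49 (SE 0.30) with all rats and at -0.23 without Sham rat 2. Without HF rat 1, 5 members were higher, with a median of 0.016, and Trem2 still did not overlap (12.9% of all genes).

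The second comparison was of trained with sedentary rats after ligation. Against HF, the HFE group had lower fitted levels for all 9 members (48.3% of all genes were higher), with a median log2 fold change of -0.48 beside -0.0094 over all genes. None was called (0% of 14938 genes called), and the lowest adjusted p was 0.627 in edgeR, with 0 calls by DESeq2 and limma. Cd163 had the largest difference at -1.34 (SE 0.38, unadjusted p = 0.0115), from a mean of 26.4 CPM in HF to 10.4 CPM in HFE. Mrc1 followed at -0.75 (SE 0.26, unadjusted p = 0.0234). These were the 2 members lower at an unadjusted p below 0.05 (3.29% of all genes were), and also the 2 whose rats did not overlap (6.16% of all genes in that direction). For C1qa the value was -0.64 (SE 0.31), for C1qb -0.58 (SE 0.28), for Csf1r -0.48 (SE 0.25) and for Lgals3 -0.40 (SE 0.21). Adgre1, Cd68 and Trem2 differed least, at -0.29 (SE 0.24), -0.21 (SE 0.25) and -0.17 (SE 0.36). Without HF rat 1, the library rich in T cell markers, Csf1r also had an unadjusted p below 0.05 and non-overlapping rats, making 3 of 9 by both counts (5.05% and 13.5% of all genes), with a median of -0.66. Without HF rat 3, the rat highest in Cd163, the median was -0.27, with Cd163 at -0.86 (SE 0.26), Mrc1 at -0.42 (SE 0.17), C1qa at -0.27 (SE 0.23) and C1qb at -0.18 (SE 0.15). The unadjusted count stayed at 2 there, was 1 without HFE rat 2 or HFE rat 3, and was 4 without HF rat 2 or HFE rat 1.

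BAIBA was compared with HF in the same way. Fitted levels were higher in BAIBA for 8 members and lower for Cd163 (48.1% of all genes higher), with a median of 0.45 beside -0.0098 over all genes, and the adjusted p ran from 0.851 to 0.969 in edgeR. None was called (0% of 15039 genes called), none had an unadjusted p below 0.05 (5.55% of all genes had) and no member's rats were separate (6.01% of all genes higher and 5.37% lower without overlap), with 0 calls by DESeq2 and limma. The largest value was Trem2 at 0.96 (SE 0.49), then Cd68 at 0.67 (SE 0.47) and C1qb at 0.66 (SE 0.44), and Cd163 was at -0.086 (SE 0.33). BAIBA rat 1 decided the sign. Without it the median was -0.050, 4 of 9 members were higher, and Trem2, Cd68 and C1qb stood at 0.20 (SE 0.33), -0.050 (SE 0.29) and 0.14 (SE 0.33). The median was 0.74 without HF rat 3 and 0.73 without BAIBA rat 2, and the unadjusted counts were then 1 and 3.

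Set directly against each other, the BAIBA and HFE groups had the widest differences. All 9 members had higher fitted levels in BAIBA (50.1% of all genes higher), with a median log2 fold change of 1.10 beside 0.00049 over all genes. In edgeR 0 of 9 were called (0.0808% of 14844 genes called), and the lowest adjusted p was 0.0986, for Cd163 at 1.25 (SE 0.19, unadjusted p = 0.000181), from a mean of 10.4 CPM in HFE to 24.9 CPM in BAIBA. At an unadjusted p below 0.05, 6 members were higher (4.68% of all genes): Cd163, C1qb at 1.25 (SE 0.35), Mrc1 at 1.17 (SE 0.29), C1qa at 1.10 (SE 0.44), Lgals3 at 0.99 (SE 0.39) and Csf1r at 0.72 (SE 0.30). Cd163, Mrc1 and C1qb had every BAIBA rat above every HFE rat (7.13% of all genes had), and the exact permutation p of each was 0.1, the smallest that 20 assignments allow. Trem2 at 1.13 (SE 0.55), Cd68 at 0.88 (SE 0.46) and Adgre1 at 0.44 (SE 0.47) spread more widely.

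The call for Cd163 turned on the fit. Rats with the same replicate number deviated together in this comparison, and with the number as a block Cd163 was called at 1.28 (SE 0.16, edgeR adjusted p = 0.0487), 1 call among the members in place of 0. This pairing was read from these same data and the labels name no pairs, so the block fit is no separate evidence. Cd163 was also called without HFE rat 3 (adjusted p = 0.0302), with no filter beyond 1 count (0.0150) and by DESeq2 (8.25e-06), which called Mrc1 (0.00400) and C1qb (0.00893) too. Over the other alternatives its adjusted p reached 0.391, and limma called 0 members. Without BAIBA rat 1 the median of the members was 0.50 and 3 of 9 kept an unadjusted p below 0.05 (4.96% of all genes), namely Cd163 at 1.19 (SE 0.21), Mrc1 at 0.80 (SE 0.19) and C1qb at 0.71 (SE 0.14). These 3 were also non-overlapping without that rat (13.7% of all genes). Trem2, Cd68 and Adgre1 were then at 0.36 (SE 0.40), 0.15 (SE 0.26) and 0.0087 (SE 0.46), all 9 members remaining above 0. The unadjusted count was also 3 without HFE rat 2 or HFE rat 3, and was 9 without BAIBA rat 2.

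HFE rats were next compared with Sham rats. All 9 members had lower fitted levels in HFE (51% of all genes higher), with a median of -0.68 beside 0.0055 over all genes. None was called (0% of 14804 genes called), and the lowest adjusted p in edgeR was 0.198. Before adjustment, 6 members were lower at p below 0.05 (5.15% of all genes): C1qa at -0.78 (SE 0.18), Cd163 at -0.73 (SE 0.28), Cd68 at -0.68 (SE 0.27), C1qb at -0.68 (SE 0.14), Mrc1 at -0.59 (SE 0.14) and Csf1r at -0.55 (SE 0.19). The rats of C1qa, C1qb, Csf1r, Mrc1 and Trem2 did not overlap, 5 of 9 members beside 8.24% of all genes. DESeq2 gave adjusted p = 0.0166 for C1qa and 0.0197 for C1qb, with fold changes under the limit, so its calls and those of limma were also 0. In the fit of all 12 rats at once, 0 members had an unadjusted p below 0.05, and leaving out 1 rat at a time gave 3 to 7, the 3 without Sham rat 1 or without HFE rat 2. Fibroblast markers moved with the members here. Fitted levels were lower for 7 of 7, 4 at an unadjusted p below 0.05 (5.15% of all genes), with a median of -0.31. In BAIBA against HFE 7 of 7 were higher, 2 at that level (4.68%), with a median of 0.42. Without BAIBA rat 1, 6 of 7 were higher, 1 at that level (4.96%), with a median of 0.13. In HFE against HF 4 fibroblast markers were lower and 3 higher, with a median of -0.019. There 1 was higher at that level (4.34%) and 0 lower. Their part in the result was not tested.

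**Figure D2:**
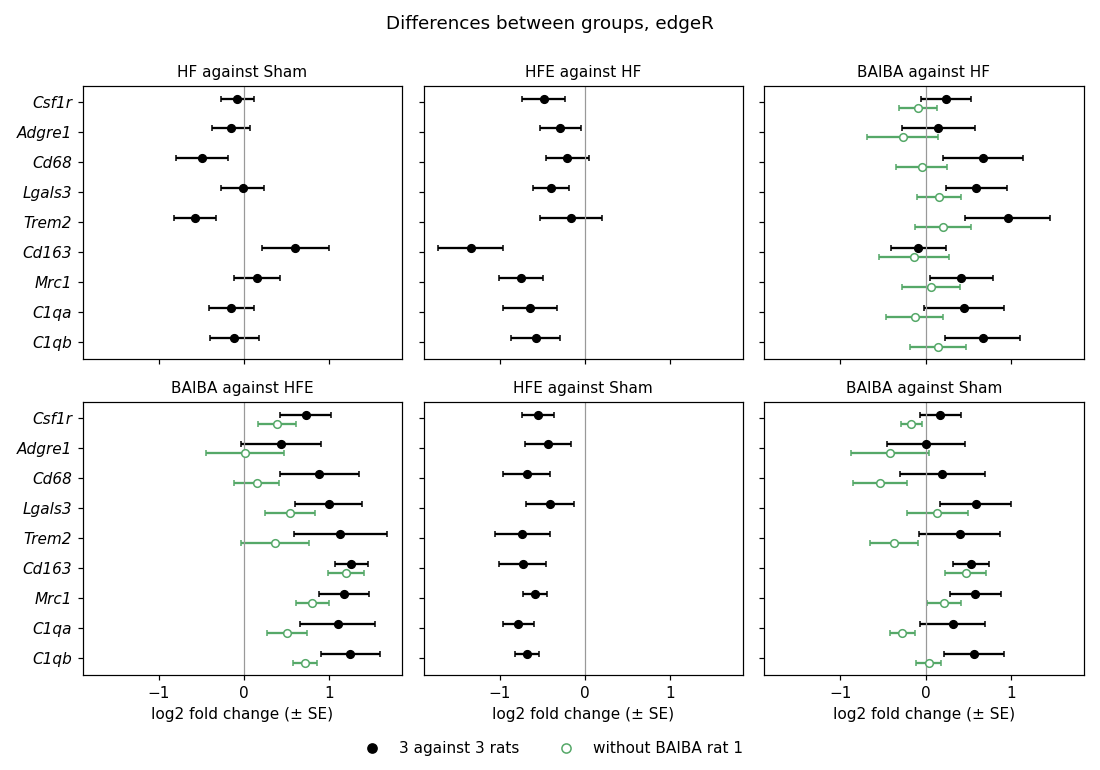
Log2 fold change (horizontal axes) of each macrophage gene in 6 comparisons, with SE bars, from edgeR. Filled points use 3 against 3 rats and open points leave out BAIBA rat 1, which takes the median from 1.10 to 0.50 in BAIBA against HFE and from 0.45 to -0.050 in BAIBA against HF.

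BAIBA rats were last set against Sham rats. All 9 fitted differences were above 0 (50.9% of all genes were), from 0.0059 for Adgre1 to 0.58 for Lgals3, with a median of 0.39 beside 0.0040 over all genes, although the difference for Adgre1 turned negative under 8 of the 10 other settings that kept all rats. In edgeR 0 were called (0.0402% of 14920 genes called), with adjusted p of 0.656 or more, and DESeq2 and limma called 0. Cd163 alone had an unadjusted p below 0.05, at 0.53 (SE 0.21, unadjusted p = 0.0367 in edgeR across all genes, 4.13% of which were higher at that level, exact permutation p = 0.1), and was the 1 member with all BAIBA rats higher (6.52% of all genes). Without BAIBA rat 1 its value was 0.47 (SE 0.24, unadjusted p = 0.0945) and its rats still did not overlap (12.6% of all genes), while the median of the members was -0.17 and 4 of 9 were higher.

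Taking the 9 rats with a ligated artery against the 3 Sham rats, 6 members had lower and 3 higher fitted levels (51.6% of all genes higher), with a median of -0.16 beside 0.0065 over all genes. None was called (0% of 15617 genes called), none had an unadjusted p below 0.05 (6.35% of all genes had), and DESeq2 and limma called 0. Without BAIBA rat 1 the median was -0.26, 1 member was higher and 1 had an unadjusted p below 0.05. In a single edgeR test per gene of any difference among the 4 groups, 0 members were called (0% of 15617 genes called). There 3 of the members, Cd163, Mrc1 and C1qb, had an unadjusted p below 0.05, beside 9.71% of all genes. Their adjusted p from edgeR was 0.395 for Cd163, 0.448 for Mrc1 and 0.485 for C1qb. DESeq2 called Cd163 there (adjusted p = 0.0189), and limma called 0.

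The members varied together across rats. Over the 12 rats, which share their library's depth and scaling across genes, the 36 pairs of members had a median Pearson correlation of log2 CPM of 0.764, from 0.173 to 0.946, and a median Spearman correlation of 0.657. With group means removed the median Pearson value was 0.709. Without BAIBA rat 1 it was 0.599, and without that rat and with group means removed 0.474. The closest pair was C1qa and C1qb at 0.946, then Mrc1 and C1qb at 0.910. Cd163 had the lowest median to the other members at 0.553, with 0.173 to Adgre1 and 0.260 to Cd68 but 0.848 to Mrc1, and Adgre1 followed at 0.598. Without BAIBA rat 1 the lowest medians were those of Adgre1 at 0.415 and Cd163 at 0.513. These are descriptions of 12 rats in 4 groups.

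Ratios within a library do not depend on its scaling. The FPKM ratio of C1qa to C1qb averaged 1.32 ± 0.108 in Sham, 1.29 ± 0.0350 in HF, 1.21 ± 0.208 in HFE and 1.09 ± 0.167 in BAIBA (SD, n = 3). Sham rats had 1.24 to 1.45 and HF rats 1.26 to 1.33, and all BAIBA rats, at 0.902 to 1.22, lay below both, while the HFE rats overlapped every group. The ratio of Cd163 to Cd68 averaged 0.866 ± 0.425 in Sham, 1.65 ± 0.627 in HF, 0.774 ± 0.294 in HFE and 1.25 ± 0.592 in BAIBA. It ranged from 0.400 in Sham rat 2 to 2.14 in HF rat 3, and BAIBA rat 1, high in Cd68, had 0.590 while the other BAIBA rats had 1.74 and 1.41. For Mrc1 to Cd68 the means were 0.974 ± 0.433 in Sham, 1.39 ± 0.447 in HF, 0.950 ± 0.141 in HFE and 1.28 ± 0.324 in BAIBA.

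**Figure D3:**
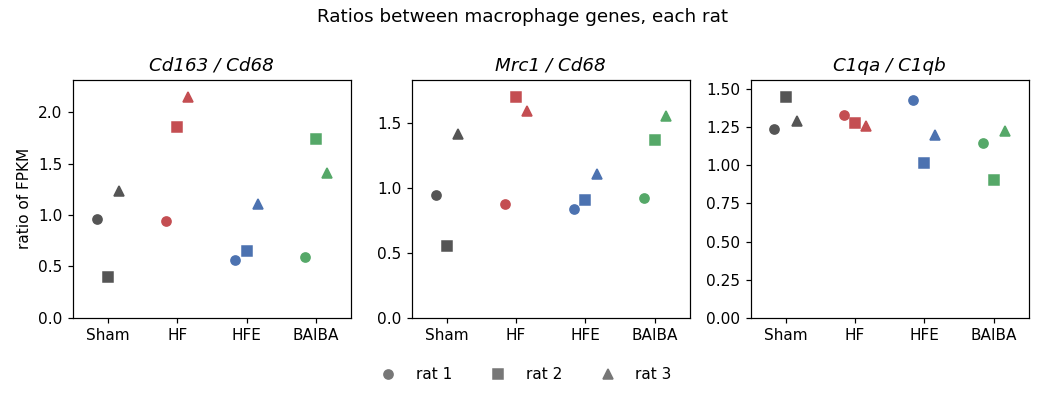
Ratios of FPKM within each library (vertical axes, starting at 0) for Cd163 to Cd68, Mrc1 to Cd68 and C1qa to C1qb, 1 marker per rat. The C1qa to C1qb ratio stays between 0.902 and 1.45 in all 12 rats, while Cd163 to Cd68 runs from 0.400 to 2.14.

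The genes whose pattern over the 12 rats was most like the mean of the standardised members were looked up among 15608 others. C1qc, the third C1q chain, led with a Pearson correlation of 0.967 (0.929 without BAIBA rat 1), then came Ctss, the protease cathepsin S, at 0.967 (0.942), Gsdmd, the pore-forming gasdermin D, at 0.939 (0.872), an unnamed assembled gene at 0.939 (0.867) and C1qtnf7, a C1q-related secreted protein, at 0.929 (0.859). Ranks 6 to 20 mixed resident macrophage genes, such as Folr2 at 0.929 (0.885) and Clec10a at 0.904 (0.815), with genes of the extracellular matrix. Among the matrix genes were Fbln1 at 0.920 (0.839), Fn1 at 0.917 (0.829) and Bgn at 0.907 (0.806). The likeness is therefore not limited to macrophage genes. The C1qc levels were 27.0, 24.9 and 26.1 FPKM in Sham, 23.1, 19.2 and 37.1 in HF, 17.4, 13.5 and 16.5 in HFE and 60.3, 20.2 and 28.7 in BAIBA. The HFE rats lay below all 9 others. In edgeR C1qc differed by -0.72 (SE 0.26) in HFE against HF, by -0.66 (SE 0.11, unadjusted p = 0.000310, adjusted p = 0.129) in HFE against Sham and by 1.12 (SE 0.36) in BAIBA against HFE, or 0.61 (SE 0.17) without BAIBA rat 1. Ctss was at -0.74 (SE 0.26), -0.83 (SE 0.14, adjusted p = 0.129) and 1.18 (SE 0.35) in the same 3 comparisons, the last being 0.69 (SE 0.19) without BAIBA rat 1.

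In all, 6 further lists of the macrophage system were read from the same fits, and 0 of their genes were called in any of the 7 comparisons. Of 19 core macrophage genes, 5 were lower in HF against Sham at an unadjusted p below 0.05 (3.53% of all genes) and 0 higher, with a median of -0.29. Of 7 fibroblast markers, 6 had lower fitted levels in the same comparison, 3 of them at that level, and their part in the result was not tested. The lowest p was that of Cyth4, a cytohesin of blood cells, at -0.78 (SE 0.15, unadjusted p = 0.00113, adjusted p = 0.734 from edgeR). Lyz2, lysozyme, was at -0.97 (SE 0.19, adjusted p = 0.737) and Fcer1g, the shared chain of Fc receptors, at -0.61 (SE 0.18, adjusted p = 0.805). Lyz2 measured 70.0, 102 and 60.3 FPKM in Sham, 39.7, 37.6 and 39.5 in HF, 49.4, 27.6 and 29.0 in HFE and 686, 46.7 and 52.0 in BAIBA. Every HF and HFE rat was below every Sham rat. In HFE against HF the core genes followed the members less: 12 of 18 tested had lower and 6 higher fitted levels (48.3% of all genes higher). Their median there was -0.070, with 2 lower (3.29% of all genes) and 0 higher by the unadjusted p. Without HF rat 1, 10 of 18 were higher (51.4% of all genes), with a median of 0.019. In HFE against Sham 6 of 18 tested core genes were lower (5.15% of all genes) and 0 higher by the unadjusted p, with a median of -0.50. In BAIBA against HFE 3 of 18 were higher (4.68% of all genes) and 0 lower, with 2 and 0 without BAIBA rat 1 (4.96% of all genes higher).

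Of the resident macrophage list, 11 of 12 genes had a row and 10 were tested in each pair of groups. In HFE against HF 9 were lower and 1 higher, with a median of -0.15 and 0 at an unadjusted edgeR p below 0.05. In BAIBA against HF 8 were higher and 2 lower, with a median of 0.33. There 2 were higher at that level (2.81% of all genes) and 0 lower. Without BAIBA rat 1, 5 of 10 were higher, with a median of 0.0067. Igf1, a growth factor, was at 1.22 (SE 0.38, unadjusted p = 0.0159) in BAIBA against HF and Lyve1, a hyaluronan receptor that lymphatic endothelium also carries, at 1.04 (SE 0.40, unadjusted p = 0.0369), both with an edgeR adjusted p of 0.851. Without BAIBA rat 1 they stood at 1.06 (SE 0.44) and 0.57 (SE 0.28), with unadjusted p of 0.0642 and 0.0870. Lyve1 measured 7.39, 7.34 and 7.43 FPKM in Sham, 7.89, 5.16 and 10.04 in HF, 7.36, 4.55 and 5.78 in HFE and 26.7, 10.3 and 12.3 in BAIBA, so that all BAIBA rats were above the other 9. Folr2, a folate receptor, was at -0.45 (SE 0.21) in HF against Sham. Of the recruited monocyte list 9 of 12 genes had a row, and Ccr2 was among those without one. Of these 9, 7 were tested, or 8 in BAIBA against Sham and in all infarcted rats against Sham. Cd44, a hyaluronan receptor of many leukocytes, was at 0.43 (SE 0.13, unadjusted p = 0.0101) in HFE against HF. The list went mostly the other way there, with 5 genes lower and 2 higher and a median of -0.57. By an unadjusted edgeR p below 0.05, 1 was higher (4.34% of all genes) and 0 lower. Without HF rat 1, 4 of 7 were higher, with a median of 0.17. The integrin chains Itga4 and Itgal were at -1.09 (SE 0.66) in BAIBA against HF and -1.14 (SE 0.77) in HFE against HF, and both were highest in HF rat 1, the T cell-rich library, at 1.97 and 9.88 FPKM.

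In the list of scar and lipid macrophage genes all 12 had a row. In HFE against HF 11 were tested, 8 lower and 3 higher, with a median of -0.11. By an unadjusted edgeR p below 0.05, 2 were higher and 1 lower there (4.34% and 3.29% of all genes). In HF against Sham 10 of 12 were lower, 1 at that level (3.53% of all genes), and 2 higher. Lipa, lysosomal acid lipase, was at -0.39 (SE 0.10, unadjusted p = 0.00558) and Cd63, a tetraspanin of lysosomes, at 0.26 (SE 0.10, unadjusted p = 0.0272) in HFE against HF, and Il1rn, the interleukin-1 receptor antagonist, at -2.67 (SE 0.98, unadjusted p = 0.0313) in HF against Sham. Il1rn was at 3.86 FPKM in Sham rat 2 and at 0.618 and 0.296 in the other Sham rats, so its group was uneven. The growth factors of the Csf1r receptor were Csf1, at -0.30 (SE 0.14, unadjusted p = 0.0623) in HFE against HF, and Il34, at 0.54 (SE 0.29, unadjusted p = 0.0978) in BAIBA against HF, or 0.25 (SE 0.26) without BAIBA rat 1. Csf1 measured 6.31, 6.14 and 4.55 FPKM in Sham, 4.37, 5.16 and 5.47 in HF, 4.30, 3.89 and 3.77 in HFE and 6.06, 4.07 and 4.72 in BAIBA, so the HFE rats were below every Sham and HF rat in FPKM, although on the CPM scale HFE and HF overlapped. Cebpb, a transcription factor, was at 0.59 (SE 0.35) in BAIBA against HF. Of the list of Csf1r ligands and relatives 9 of 10 genes were tested. In HFE against HF 8 were lower and 1 higher, with a median of -0.17. In BAIBA against HF 7 were higher and 2 lower, with a median of 0.24, or 4 of 9 higher at -0.045 without BAIBA rat 1. In either comparison 0 had an unadjusted edgeR p below 0.05 (7.62% and 5.55% of all genes had).

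Among 12 genes of the C1 complex and its receptors and regulators, C1s, a protease of that complex, was at -0.45 (SE 0.14, unadjusted p = 0.0119, edgeR adjusted p = 0.627) in HFE against HF. Its FPKM was 34.3, 34.1 and 31.6 in Sham, 35.3, 31.2 and 41.2 in HF, 29.8, 23.7 and 23.8 in HFE and 56.0, 37.2 and 36.2 in BAIBA. The HFE rats were below all others, the order seen for C1qc. The cells that C1s RNA came from were not tested, and C1qc is counted both in this list and among the core macrophage genes. Serping1, the C1 inhibitor, was at 0.72 (SE 0.25, unadjusted p = 0.0211) in BAIBA against HF, or 0.45 (SE 0.18, unadjusted p = 0.0448) without BAIBA rat 1. In BAIBA against HFE 6 of the 12 were higher and 1 lower by the unadjusted p (4.68% and 4.88% of all genes), with a median of 0.71. The counts without BAIBA rat 1 were 5 and 1 (4.96% and 5.73% of all genes), with a median of 0.39.

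**Figure D4:**
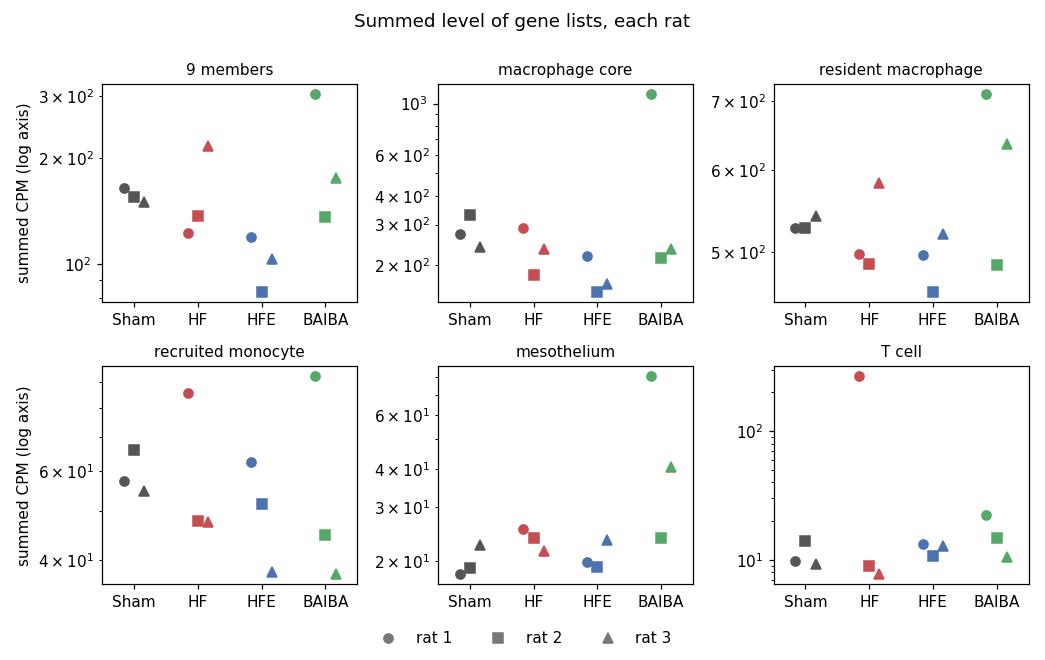
Summed CPM of 6 gene lists (vertical log axes), 1 marker per rat. The 9 macrophage members sum to 83.2 to 120 CPM in the HFE rats and to 305 CPM in BAIBA rat 1, which is also highest for the mesothelial list, while the T cell list reaches 268 CPM in HF rat 1.

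Summed over the 9 members, Sham rats held 150 to 165 CPM, HF rats 122 to 217, HFE rats 83.2 to 120 and BAIBA rats 136 to 305. The HFE range lay below the ranges of all other groups. The neutrophil list (6 of 6 with a row) summed to 2.41 to 11.2 CPM over all 12 rats, with Mpo at 0 in 8 rats and Camp at 0 in 9, and the dendritic cell list (6 of 6) to 25.4 to 36.7 CPM. The B cell list (4 of 5) summed to 2.69 CPM at most. Of the mesothelial list, Msln was at 0 in 3 rats, Upk3b and Krt19 in 4 each and Lrrn4 in 5, whereas BAIBA rat 1 had 17.8 FPKM of Msln. Fibroblast markers summed to 1512 to 1625 CPM in Sham, 1186 to 1715 in HF, 1127 to 1557 in HFE and 1476 to 2071 in BAIBA. The mesothelial, mast cell and fibroblast lists were highest in BAIBA rat 1, as were 8 of the members. Cardiomyocyte markers (7 of 7) summed to 34506 CPM in that rat, the lowest of all 12, and to 42053 and 40963 in the other BAIBA rats. In HFE against HF 4 of these 7 were higher and 0 lower at an unadjusted edgeR p below 0.05 (4.34% and 3.29% of all genes). In HFE against Sham 4 were higher and 1 lower (6.04% and 5.15%). The part of these lists in the members' differences was not tested.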

How the data were processed

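The study removed adapters and poor reads, aligned paired-end oligo(dT) libraries with HISAT2, assembled unannotated genes with StringTie and counted reads per gene with featureCounts (Subread). Versions are not given in the sources used here, nor is the strand setting. The labels name mm9, a mouse build, while the gene identifiers are those of rat, so no coordinates were taken from the files. The authors deposited whole-number counts and FPKM for each library, not pooled, and both were used. FPKM served for levels and ratios, and counts for tests.

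The members and gene lists were chosen with earlier results of these data known. Counts were filtered with filterByExpr, scaled by TMM and tested with edgeR 4.0.16 (robust quasi-likelihood, R 4.3.3), 2 groups at a time, with p adjusted over all genes tested. The scripts were tested on simulated data. CPM are scaled by TMM over all 12 libraries, and their log2 values carry a pseudocount of 0.1, or a prior count of 2 for correlations. Alternatives used DESeq2 1.42.0, limma 3.58.1 on log2(FPKM + 1) or log2(FPKM + 0.1), other filters and scalings, a replicate block, and each rat left out. Fits of the other lists and their genes without BAIBA rat 1 or HF rat 1 were added after the data were seen. Replicate numbers were taken to pair rats where all 3 same-numbered pairs deviated together with a correlation above 0.1, which held for BAIBA with HFE alone (0.174, 0.224 and 0.118). The labels do not say what a number marks. They name 2 sequencing instruments without saying which library ran on which, so no such batch could be compared. Libraries of a group differed by more than sampling noise. Beside the members, the text names from each macrophage list the 3 genes with the lowest unadjusted p in any of 3 comparisons (HF with Sham, and each treated group with HF), and the 5 genes most like the members. Msln, Mpo, Camp, Upk3b, Krt19, Lrrn4, Spp1, Gpnmb, Clec10a, Fbln1, Fn1 and Bgn were named after their values were seen.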

Additional observations from a re-analysis of the deposited data

How the results depend on the processing

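Of 1053 fold changes of single members under another setting, 992 kept their direction and their side of the threshold of adjusted p, 8 passed it newly and 53 changed sign. In BAIBA against HFE the number of members called was 3 by DESeq2, 1 with no filter beyond 1 count, 1 with the replicate block, 4 by unadjusted p and 0 to 1 when 1 rat was left out. In HFE against HF it was 1 by unadjusted p, and for any group difference 1 by DESeq2 and 3 by unadjusted p. The block changed no other call. The rats are known to share only a number, BAIBA and HFE rats included. Outside BAIBA against HFE no value was paired. Calls over all genes in BAIBA against HFE were 12 in the fit reported, 154 by DESeq2, 32 with the replicate block, 30 with no filter, 3 with all 12 rats in 1 fit and 1 to 3 by limma. DESeq2 called 23 in HF against Sham, 18 in HFE against HF, 27 in BAIBA against HF and 66 in HFE against Sham, where the fit reported called 0. The cause of these differences was not tested.

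In HF against Sham, Lgals3 was at 0.023 with the replicate block, 0.0030 by limma on log2(FPKM + 1) with and without a filter and 0.0059 on log2(FPKM + 0.1). In BAIBA against HF, Cd163 was at 0.021 with the block and 0.034, 0.034 and 0.049 in the same limma fits, and Adgre1 at -0.021 with the block and -0.022 by limma on log2(FPKM + 0.1). In BAIBA against Sham, Adgre1 was at -0.0019 by DESeq2, -0.00035 by RLE, -0.0015 with no filter, -0.00073 with all 12 rats, -0.12 with the block and -0.059, -0.059 and -0.15 by limma. In all infarcted rats against Sham, Mrc1 was at -0.017 by limma on log2(FPKM + 0.1) and Lgals3 at -0.0071 with the block.

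Leaving out 1 rat at a time, the ranges in HF against Sham were -0.17 to 0.37 for Mrc1, -0.32 to 0.039 for Adgre1, -0.27 to 0.11 for Csf1r, -0.52 to 0.055 for C1qa, -0.51 to 0.089 for C1qb and -0.20 to 0.30 for Lgals3, and in HFE against HF -0.48 to 0.10 for Trem2. In BAIBA against HF they were -0.050 to 0.98 for Cd68, -0.34 to 0.40 for Cd163, -0.27 to 0.53 for Adgre1, -0.093 to 0.44 for Csf1r and -0.13 to 0.83 for C1qa. In BAIBA against Sham they were -0.54 to 0.49 for Cd68, -0.42 to 0.37 for Adgre1, -0.17 to 0.34 for Csf1r, -0.28 to 0.58 for C1qa and -0.37 to 0.71 for Trem2. For all infarcted rats against Sham they were -0.077 to 0.35 for Cd163, -0.066 to 0.13 for Mrc1, -0.25 to 0.013 for C1qb and -0.14 to 0.36 for Lgals3. The order of the 4 group means was the same on the log2 CPM scale for 6 of 9 members. With 3 rats a group, and as few as 19 counts of a member in a library, small differences could not be detected.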
